A study of Mus musculus with 6 samples.

Results

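Integrins and laminins are described here in C2C12 cells that lost Myod1. The genes were chosen by symbol, as all integrin alpha (Itga), integrin beta (Itgb) and laminin alpha, beta and gamma chain (Lama, Lamb, Lamc) genes in the deposited table of gene levels. There were 38 such genes among 28892, comprising 27 integrin genes (19 alpha and 8 beta) and 11 laminin genes (5 alpha, 3 beta and 3 gamma). They carry 37 symbols, because Itgam is listed under a pair of overlapping gene identifiers. The knockout cells, C2C12 Myod1-/-, came from 1 clone selected after CRISPR/Cas9 editing of the first exon of Myod1, delivered by lentivirus with puromycin selection. The cells they were set against were unedited C2C12 WT cells. C2C12 is a myoblast line that goes back to satellite cells of the thigh muscle of a female C3H mouse, aged 2 months. Both genotypes were kept for 6 days in the serum-free medium Ndiff227, and 3 libraries were made of each, 6 in all. The study reports that C2C12 WT cells formed myotubes in this medium, while C2C12 Myod1-/- cells formed floating spheres. The form of the culture and the genotype therefore cannot be told apart. No label says that the 3 samples of a genotype came from separate cultures, so p-values cover only the variation among these samples, which may be technical, and clone and genotype cannot be told apart.

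Integrins are cell surface receptors made of 1 alpha and 1 beta chain. They hold cells to the extracellular matrix or to other cells, and connect to the actin cytoskeleton through talin, kindlin and other proteins on the inside of the membrane. Laminins are secreted heterotrimers of an alpha, a beta and a gamma chain, and are a core part of basement membranes. In skeletal muscle the best known receptor for laminin pairs the Itga7 and Itgb1 products, and the main laminin of the fibre's basement membrane contains the Lama2 product. Loss of LAMA2 or of ITGA7 causes congenital muscle disease in humans. Muscle also makes splice forms of both receptor chains. The Itgb1 form known as beta1D replaces the common beta1A in differentiated striated muscle, and Itga7 has alternative cytoplasmic tails and a pair of mutually exclusive extracellular exons.

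The exons that tell the Itga7 and Itgb1 transcripts apart are shown because the largest isoform differences below rest on them. They were read from the GENCODE vM21 transcripts on GRCm38, and all lie on the + strand. For Itgb1 (ENSMUSG00000025809), the transcript ENSMUST00000149116 holds an extra exon of 81 bases at chr8:128726983-128727063 that encodes another end of the cytoplasmic tail. It is printed to its stop codon (chr8:128726983-128727057), with the coding part of the last exon of ENSMUST00000090006 (chr8:128732023-128732088), which encodes the tail where the extra exon is skipped. Capitals mark the codons of the motif asparagine, proline, any residue, tyrosine (NPxY), a docking site for proteins such as talin, and each of the 2 tails holds the motif 2 times.
Itgb1 tail with the extra exon: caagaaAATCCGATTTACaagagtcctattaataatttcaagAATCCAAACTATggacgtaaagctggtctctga
Itgb1 tail without it: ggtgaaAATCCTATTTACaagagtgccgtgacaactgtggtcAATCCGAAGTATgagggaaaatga

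For Itga7 (ENSMUSG00000025348), the transcript ENSMUST00000219427 holds an extra exon of 113 bases (chr10:128956611-128956723), after which the last exon is read in another frame. ENSMUST00000218290 goes straight to the last exon, whose coding part lies at chr10:128957621-128957851. Capitals mark the codons of glycine, phenylalanine, phenylalanine and a pair of lysine or arginine residues, the conserved start of alpha tails next to the membrane.
Itga7 extra tail exon: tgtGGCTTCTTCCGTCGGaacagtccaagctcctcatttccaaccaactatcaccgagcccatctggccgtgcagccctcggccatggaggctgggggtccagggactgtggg
Itga7 last exon, coding part: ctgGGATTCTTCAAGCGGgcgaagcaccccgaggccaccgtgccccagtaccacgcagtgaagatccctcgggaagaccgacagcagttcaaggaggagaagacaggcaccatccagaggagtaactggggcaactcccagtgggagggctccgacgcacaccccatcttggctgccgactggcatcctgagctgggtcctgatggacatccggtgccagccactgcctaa

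Upstream in the same gene, ENSMUST00000218290 holds an exon of 132 bases (chr10:128941445-128941576), in whose place ENSMUST00000099112 holds one of 120 bases (chr10:128941822-128941941). These are printed without capitals.
Itga7 exon of 132 bases: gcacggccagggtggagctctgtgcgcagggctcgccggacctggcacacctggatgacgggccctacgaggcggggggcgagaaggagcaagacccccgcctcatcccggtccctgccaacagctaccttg
Itga7 exon of 120 bases: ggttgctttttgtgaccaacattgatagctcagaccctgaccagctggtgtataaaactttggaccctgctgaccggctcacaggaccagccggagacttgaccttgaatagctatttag

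Gene levels are FPKM (fragments per transcript length and per mapped fragments of the library), a level per length that the authors computed with StringTie. Different genes can be set beside each other only roughly, because the listed transcripts of a gene often did not sum to its FPKM. The total FPKM over all genes were 289982 to 293631 in C2C12 Myod1-/- libraries and 297388 to 315742 in C2C12 WT libraries. Read numbers are not given, so the depth is unknown. Myod1 itself was at 0.0614, 0 and 0 FPKM in C2C12 Myod1-/- libraries and 17.3, 25.8 and 27.7 FPKM in C2C12 WT libraries. The summed level of 8 skeletal muscle genes was 14.3 to 15.0 FPKM in C2C12 Myod1-/- libraries, against 2609 to 2809 FPKM in C2C12 WT libraries. In such bulk libraries fewer cells of a type and less RNA per cell cannot be told apart. Epithelial, endothelial and Schwann cell markers stayed below a mean of 0.5 FPKM, without exception among the 15 found in the table.

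Of the 38 genes, 22 reached a mean of 0.5 FPKM over the 6 libraries and were tested. With limma on log2(FPKM + 0.1) and Benjamini-Hochberg adjustment over all 14045 genes tested, 7 rose, 12 fell and 3 did not pass an adjusted p of 0.05. Many genes passed in this comparison. Of all genes tested, 27.9% rose and 33.3% fell, against 31.8% and 54.5% of the 22. Libraries of the 2 genotypes did not overlap for 19 of the 22 genes (86.4%), and for 67.9% of all genes tested. The rule of the study takes genes that changed at least 2-fold (a log2 fold change of 1 in size) with p up to 0.05 before adjustment. With these cutoffs applied to the fit used here, 4 rose and 6 fell, where 8.67% of all genes rose and 11.7% fell. These counts are not taken from the study's own list. The median log2 fold change was -0.31 over the 22 genes and -0.05 over all genes tested. The summed FPKM of the 38 genes made up 0.300% to 0.308% of the total in C2C12 Myod1-/- libraries and 0.255% to 0.287% in C2C12 WT libraries, and every C2C12 Myod1-/- library lay above every C2C12 WT library.

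**Figure D1:**
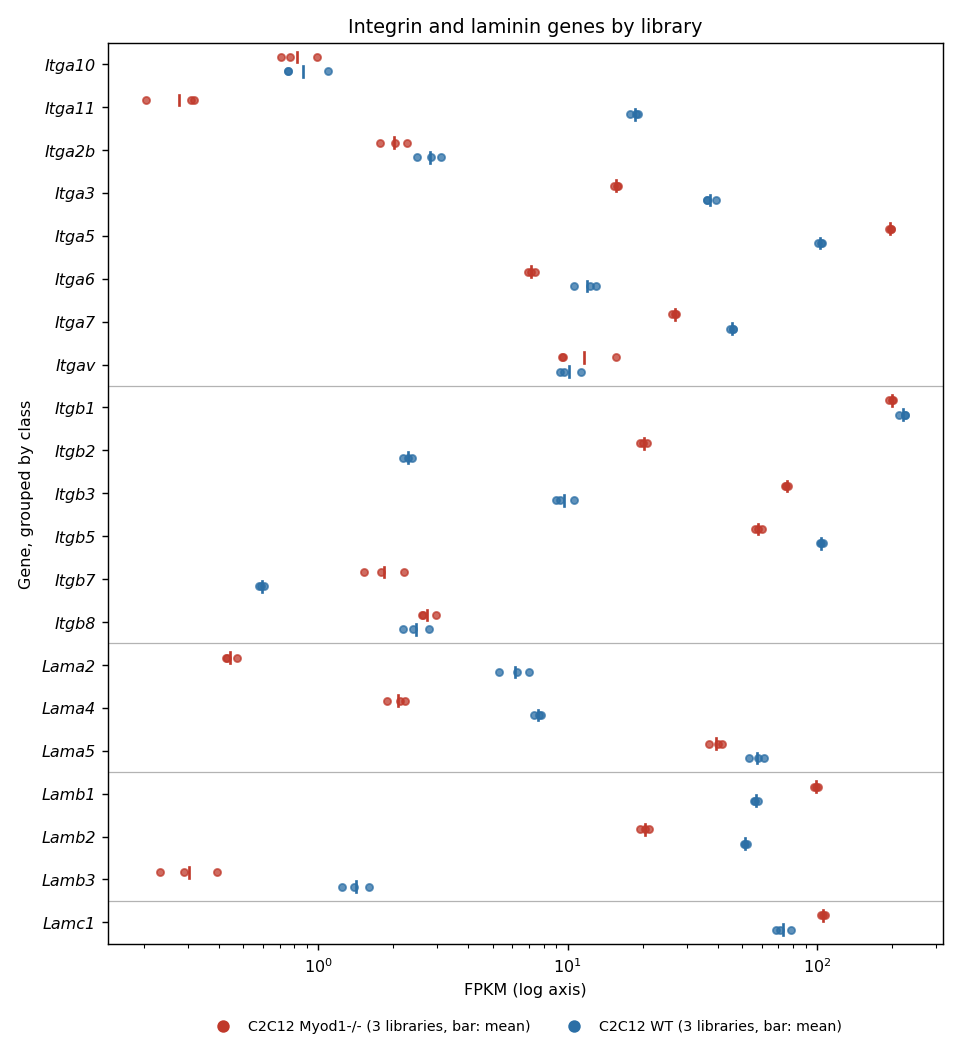
FPKM of 21 of the 22 integrin and laminin genes tested, on a log axis, with 1 point for each library and a bar at the mean of each genotype. The widest gaps are at Itga11, Itgb2, Itgb3 and Lama2, while the points of Itga10, Itgav and Itgb8 overlap between the genotypes.

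Among the integrin beta chains, C2C12 Myod1-/- cells gained Itgb3 and Itgb2 and had less Itgb5. Itgb1, the shared partner of most matrix-binding alpha chains, was the most abundant beta chain in both genotypes. Its level was 194, 202 and 200.3 FPKM in C2C12 Myod1-/- libraries, against 225, 213 and 225 FPKM in C2C12 WT libraries. All 3 C2C12 Myod1-/- libraries were lower, but the log2 fold change was only -0.15 ± 0.040 (SE, adjusted p = 0.0173). The call of Itgb1 was lost under each other scaling of the libraries, with adjusted p of 0.0646 under median ratio scaling, 0.106 without mitochondrial genes, 0.260 as TPM and 0.264 under quantile normalization. It was also lost without an intensity trend (0.0531) and when C2C12 Myod1-/- replicate 1 (0.0729), C2C12 Myod1-/- replicate 3 (0.0516) or C2C12 WT replicate 3 (0.0563) was left out.

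Itgb3 (chr11:104608000-104670476, + strand) encodes the beta chain of the vitronectin receptor, with Itgav, and of the platelet fibrinogen receptor, with Itga2b. It was at 75.2, 76.5 and 74.6 FPKM in C2C12 Myod1-/- libraries and 10.6, 8.97 and 9.30 FPKM in C2C12 WT libraries. The genotypes were far apart, with a log2 fold change of 2.96 ± 0.0682 (adjusted p = 3.07e-07). Neither alpha partner rose with it. Itgav, the alpha chain of several RGD-binding receptors, was at 9.50, 15.7 and 9.60 FPKM in C2C12 Myod1-/- libraries and 11.3, 9.32 and 9.65 FPKM in C2C12 WT libraries. A single library, C2C12 Myod1-/- replicate 2, was higher than the rest, and the log2 fold change was 0.16 ± 0.204 (adjusted p = 0.521, 95% interval -0.33 to 0.65). Without that library it was -0.07 (adjusted p = 0.558).

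Itga2b was at 2.03, 1.76 and 2.26 FPKM in C2C12 Myod1-/- libraries and 2.84, 3.11 and 2.48 FPKM in C2C12 WT libraries. It fell by 0.46 on the log2 scale (adjusted p = 0.0204), and this call was lost under quantile normalization (0.113). It was also lost when C2C12 Myod1-/- replicate 1 (0.0511), C2C12 Myod1-/- replicate 2 (0.0586), C2C12 WT replicate 1 (0.0518) or C2C12 WT replicate 2 (0.0634) was left out. Markers of platelets and megakaryocytes, the cells known for Itga2b, summed to 3.45 to 4.10 FPKM over 4 genes in C2C12 Myod1-/- libraries and 3.15 to 3.78 FPKM in C2C12 WT libraries. Most of that sum was Ppbp, at 3.64, 3.09 and 2.74 FPKM in C2C12 Myod1-/- libraries and 2.17, 2.58 and 2.79 FPKM in C2C12 WT libraries, and Gp9, Gp1ba and Pf4 were below 1 FPKM in all 6 libraries.

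Itgb5, another partner of Itgav with vitronectin as a ligand, moved the other way. Its level was 56.6, 60.1 and 57.9 FPKM in C2C12 Myod1-/- libraries, against 105, 103 and 103 FPKM in C2C12 WT libraries. All C2C12 Myod1-/- libraries lay below all C2C12 WT libraries, and it fell by 0.83 on the log2 scale (SE 0.0386, adjusted p = 6.06e-06). Itgb8, which pairs with Itgav to activate latent TGF-beta, was between 2.60 and 2.96 FPKM in C2C12 Myod1-/- libraries and between 2.19 and 2.78 FPKM in C2C12 WT libraries, and did not pass the test (0.15 ± 0.112, adjusted p = 0.294).

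Itgb2 (chr10:77530252-77565708, + strand) encodes the beta chain of the leukocyte integrins. It was at 20.8, 20.1 and 19.6 FPKM in C2C12 Myod1-/- libraries and 2.29, 2.37 and 2.19 FPKM in C2C12 WT libraries, a log2 fold change of 3.09 ± 0.0582 (adjusted p = 1.51e-07). Its alpha partners Itgal, Itgam, Itgax and Itgad were all at or below 0.0351 FPKM in C2C12 Myod1-/- libraries and at or below 0.115 FPKM in C2C12 WT libraries, all under the filter. Itgb7, known from lymphocytes where it pairs with Itga4 or Itgae, was at 1.53, 1.78 and 2.20 FPKM in C2C12 Myod1-/- libraries and 0.581, 0.606 and 0.591 FPKM in C2C12 WT libraries. It rose by 1.47 on the log2 scale (SE 0.155, adjusted p = 0.000259). Itga4 was at 0.0245, 0.00427 and 0.0124 FPKM in C2C12 Myod1-/- libraries and 0.172, 0.194 and 0.240 FPKM in C2C12 WT libraries, and no value of Itgae was above 0.143 FPKM.

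The summed level of a list of 17 leukocyte markers was 88.1 to 89.8 FPKM in C2C12 Myod1-/- libraries and 15.2 to 17.5 FPKM in C2C12 WT libraries. Most of that sum came from Cd14 (46.4, 47.3 and 47.5 FPKM in C2C12 Myod1-/- libraries and 5.98, 6.63 and 6.22 FPKM in C2C12 WT libraries) and Cd68 (27.8, 26.6 and 26.3 FPKM, against 5.24, 6.13 and 7.58 FPKM). Just 6 of the 17 reached a mean of 0.5 FPKM. Of the other 4 among these, Cd33 (6.43, 6.78 and 6.46 FPKM in C2C12 Myod1-/- libraries and 0.0836, 0.0550 and 0.0597 FPKM in C2C12 WT libraries), Cybb (3.14, 3.81 and 3.37 FPKM, against 0.139, 0.210 and 0.230 FPKM) and Cd53 (2.39, 2.63 and 1.80 FPKM, against 0.755, 0.552 and 0.650 FPKM) were higher in C2C12 Myod1-/- libraries. Lyz2 was lower, at 1.35, 1.23 and 0.986 FPKM in C2C12 Myod1-/- libraries and 1.91, 1.90 and 1.51 FPKM in C2C12 WT libraries. The part of these markers in the Itgb2 and Itgb7 results was not tested. Ptprc, the defining leukocyte surface protein CD45, was at or below 0.0218 FPKM in all 6 libraries, and Laptm5, Spi1, Cd3e and Cd79a were all at or below 0.136 FPKM. The annotated Itgb2 transcripts summed to 0.0556% to 11.8% of the gene's FPKM in C2C12 Myod1-/- libraries. Gene and transcript FPKM do not add up in these tables, and where the rest of the Itgb2 signal lies was not tested.

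**Figure D2:**
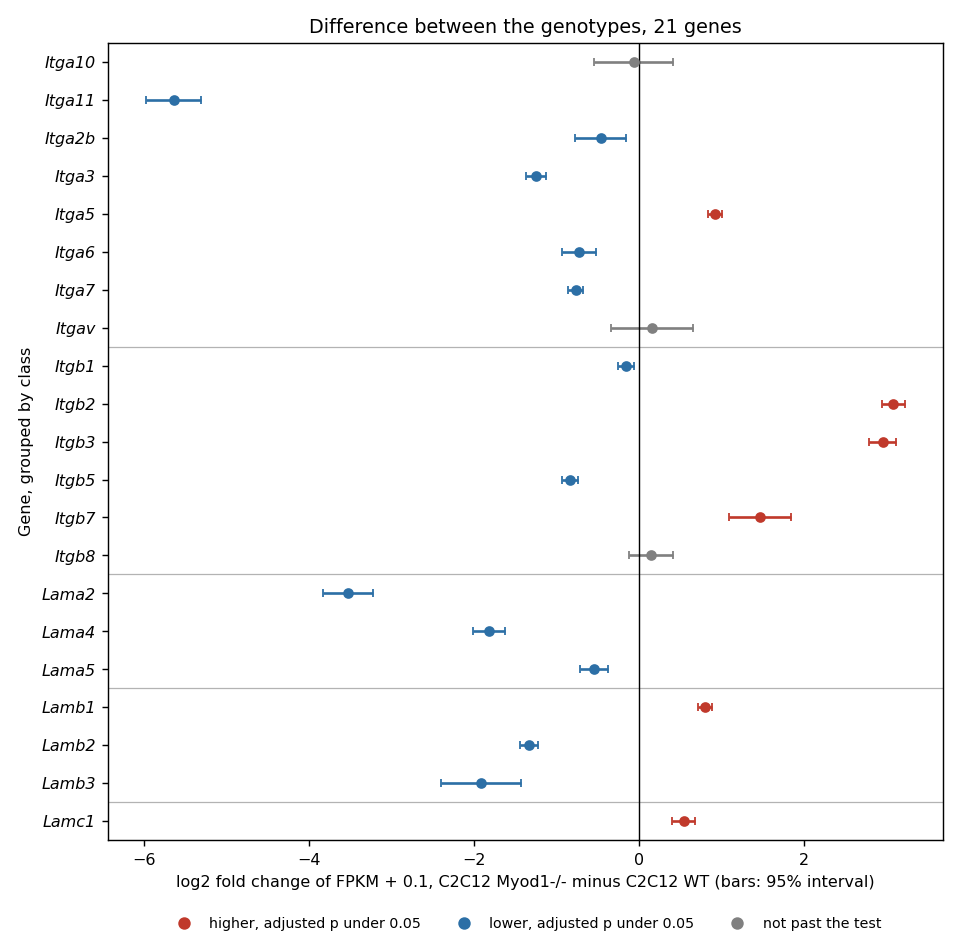
Log2 fold change of 21 of the 22 tested genes, C2C12 Myod1-/- minus C2C12 WT, with 95% intervals from limma. All laminin alpha chains lie left of 0 and Lamc1 right of 0, while the integrin beta chains lie on both sides.

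Of the 8 integrin alpha chains tested, Itga5 rose, 5 fell and 2 did not pass the test. Thus 12.5% rose and 62.5% fell, where 27.9% of all genes tested rose and 33.3% fell. Itga5 (chr15:103344286-103366763, - strand), the alpha chain of the main fibronectin receptor, was the most abundant alpha chain in both genotypes. It was at 197, 198 and 194 FPKM in C2C12 Myod1-/- libraries and 105, 104 and 101 FPKM in C2C12 WT libraries, a log2 fold change of 0.93 ± 0.0341 (adjusted p = 2.12e-06). Every C2C12 Myod1-/- library was far above every C2C12 WT library. Its level was close to that of Itgb1 in C2C12 Myod1-/- libraries and below that of Itgb1 in C2C12 WT libraries.

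The laminin receptors among the alpha chains fell together. Itga7 (chr10:128933818-128958282, + strand), the muscle laminin receptor chain, was at 26.3, 26.9 and 27.2 FPKM in C2C12 Myod1-/- libraries and 46.1, 46.0 and 44.9 FPKM in C2C12 WT libraries. It fell by 0.77 on the log2 scale (SE 0.0370, adjusted p = 7.06e-06). Itga3, a receptor chain for laminins with the Lama3 or Lama5 product, was at 16.0, 15.8 and 15.3 FPKM in C2C12 Myod1-/- libraries and 39.4, 36.3 and 36.3 FPKM in C2C12 WT libraries. Its change was larger than that of Itga7 in size, a log2 fold change of -1.24 ± 0.0495 (adjusted p = 3.10e-06). Itga6, which binds many laminins and also pairs with Itgb4 in epithelial hemidesmosomes, was at 7.10, 6.94 and 7.41 FPKM in C2C12 Myod1-/- libraries and 13.0, 10.6 and 12.2 FPKM in C2C12 WT libraries. It fell by 0.73 (SE 0.0845, adjusted p = 0.000410). For none of these 3 genes did the libraries of the genotypes overlap.

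Itga11 (chr9:62677826-62783982, + strand), a receptor chain for fibrillar collagens in mesenchymal cells, had the largest change in size among the 22 genes. It was at 0.309, 0.204 and 0.318 FPKM in C2C12 Myod1-/- libraries and 19.1, 17.7 and 18.8 FPKM in C2C12 WT libraries, a log2 fold change of -5.64 ± 0.139 (adjusted p = 3.86e-07). The other collagen receptor chains were low in both genotypes. Itga10 was at 0.711, 0.985 and 0.770 FPKM in C2C12 Myod1-/- libraries and 1.09, 0.756 and 0.753 FPKM in C2C12 WT libraries, with no difference past the test (-0.06 ± 0.199, adjusted p = 0.810). One gene overlaps 33.5% of its exonic length, so that its level is less certain. Itga1 was at 0.0522, 0.0442 and 0.0488 FPKM in C2C12 Myod1-/- libraries and 0.639, 0.522 and 0.565 FPKM in C2C12 WT libraries. Itga2 had the opposite order, with 0.318, 0.241 and 0.245 FPKM in C2C12 Myod1-/- libraries and 0.0239, 0.0428 and 0.0383 FPKM in C2C12 WT libraries. Both were under the filter and were not tested in the fit that used it.

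The summed level of 6 fibroblast markers was 164 to 193 FPKM in C2C12 Myod1-/- libraries and 959 to 1146 FPKM in C2C12 WT libraries. Nearly all of that difference was Col1a1, a subunit of the collagen that Itga11 is known to bind. Dcn was at 69.6, 71.8 and 67.8 FPKM in C2C12 Myod1-/- libraries and 59.7, 61.4 and 63.3 FPKM in C2C12 WT libraries, and Pdgfra was higher in C2C12 Myod1-/- libraries, with 21.9, 21.7 and 22.3 FPKM, against 9.58, 8.26 and 8.96 FPKM in C2C12 WT libraries. Lum was lower, at 0.28, 0.31 and 0.26 FPKM in C2C12 Myod1-/- libraries and 1.72, 1.33 and 1.86 FPKM in C2C12 WT libraries. Dpt overlapped between the genotypes, and Thy1 was at or below 0.0255 FPKM in all 6 libraries. The part of the fibroblast markers in the Itga11 result was not tested.

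Among the laminin alpha chains, all 3 that were tested fell, where 33.3% of all genes tested fell. Lama2 (chr10:26980036-27619758, - strand), the alpha chain of the muscle laminin, was at 0.427, 0.430 and 0.472 FPKM in C2C12 Myod1-/- libraries and 6.97, 5.30 and 6.25 FPKM in C2C12 WT libraries. The log2 fold change was -3.52 ± 0.126 (adjusted p = 1.89e-06). Lama4, found in the basement membranes of vessels and of developing muscle, was at 2.13, 1.89 and 2.22 FPKM in C2C12 Myod1-/- libraries and 7.78, 7.32 and 7.67 FPKM in C2C12 WT libraries (-1.82 ± 0.0812, adjusted p = 5.11e-06). Lama5, the most abundant alpha chain by gene FPKM and widespread in basement membranes, fell least. It was at 39.9, 36.9 and 41.6 FPKM in C2C12 Myod1-/- libraries and 61.3, 53.5 and 58.0 FPKM in C2C12 WT libraries (-0.54 ± 0.0691, adjusted p = 0.000627). The only annotated Lama5 transcript was at 2.74, 2.92 and 3.96 FPKM in C2C12 Myod1-/- libraries and 4.57, 6.20 and 5.67 FPKM in C2C12 WT libraries. Its fall did not pass the test in limma (-0.76, adjusted p = 0.0609). The most abundant Lama4 transcript was above this Lama5 transcript in every library, and fell between the genotypes. Its level was 4.07, 3.57 and 4.29 FPKM in C2C12 Myod1-/- libraries and 15.3, 14.4 and 15.1 FPKM in C2C12 WT libraries (-1.89 ± 0.117, adjusted p = 0.000376).

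Unlike the alpha chains, Lamb1 and Lamc1 rose, while Lamb2 and Lamb3 fell. Lamb1, the commonest beta chain, was at 99.4, 97.4 and 101 FPKM in C2C12 Myod1-/- libraries and 58.0, 55.8 and 56.3 FPKM in C2C12 WT libraries. It rose by 0.81 on the log2 scale (SE 0.0363, adjusted p = 5.33e-06). Lamb2, a beta chain concentrated at the neuromuscular synapse, was at 20.4, 19.4 and 21.3 FPKM in C2C12 Myod1-/- libraries and 50.7, 51.4 and 52.2 FPKM in C2C12 WT libraries. It fell by 1.33 (SE 0.0464, adjusted p = 1.71e-06), so that the pair moved in opposite directions. Lamb3, known from skin, was low, with 0.290, 0.391 and 0.231 FPKM in C2C12 Myod1-/- libraries and 1.39, 1.24 and 1.60 FPKM in C2C12 WT libraries (-1.92 ± 0.199, adjusted p = 0.000240).

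Lamc1, the gamma chain of most laminins, was at 106, 108 and 104 FPKM in C2C12 Myod1-/- libraries and 78.8, 68.1 and 71.2 FPKM in C2C12 WT libraries. It rose by 0.54 (SE 0.0601, adjusted p = 0.000322). All 3 C2C12 Myod1-/- libraries were above all C2C12 WT libraries. Lama3, known from skin laminins, stayed at or below 0.0282 FPKM in all 6 libraries.

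The other members under the filter did not exceed 0.328 FPKM in C2C12 Myod1-/- libraries or 1.02 FPKM in C2C12 WT libraries. Itgb6, an epithelial partner of Itgav, was at 0.0161, 0.0315 and 0 FPKM in C2C12 Myod1-/- libraries and 1.02, 0.612 and 0.799 FPKM in C2C12 WT libraries. Lama1, the embryonic laminin alpha chain, was at 0.00600, 0 and 0 FPKM in C2C12 Myod1-/- libraries and 0.446, 0.285 and 0.376 FPKM in C2C12 WT libraries. Lamc3 was listed at 0 in all 3 C2C12 Myod1-/- libraries and at 0.206, 0.198 and 0.202 FPKM in C2C12 WT libraries. Itgb4 was at 0.328, 0.315 and 0.249 FPKM in C2C12 Myod1-/- libraries and 0.468, 0.516 and 0.442 FPKM in C2C12 WT libraries. Itga8 reached at most 0.0385 FPKM in C2C12 Myod1-/- libraries and 0.170 FPKM in C2C12 WT libraries, and Itga9 was listed at 0 except for 0.00794 FPKM in a single C2C12 WT library.

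Since FPKM are per length, the make-up of each chain class was also computed, as the share of each chain in the summed FPKM of its class within a library. Shares across genes are rough, because listed transcripts summed to different parts of the gene's FPKM. That part was 204% to 213% for Lama4, 116% to 119% for Itga5, 41.9% to 105% for Itgb1 and 6.86% to 11.6% for Lama5. An exact two-sided permutation test over 3 against 3 libraries cannot give a p under 0.1, so none of these shares could pass 0.05, and each with libraries that did not overlap had p = 0.1. Itga5 made up 75.2% ± 0.862 (SD, n = 3) of the alpha chain FPKM in C2C12 Myod1-/- libraries and 44.5% ± 0.709 in C2C12 WT libraries. Itga7 made up 10.3% ± 0.272 in C2C12 Myod1-/- libraries and 19.7% ± 0.399 in C2C12 WT libraries, and Itga3 made up 6.00% ± 0.126 in C2C12 Myod1-/- libraries and 16.1% ± 0.353 in C2C12 WT libraries. Itga11 held 0.106% ± 0.0259 in C2C12 Myod1-/- libraries and 8.01% ± 0.246 in C2C12 WT libraries, and Itga6 held 2.74% ± 0.136 in C2C12 Myod1-/- libraries and 5.15% ± 0.449 in C2C12 WT libraries. The alpha chain pool thus leaned more on a single fibronectin receptor chain in C2C12 Myod1-/- libraries.

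Among beta chains, Itgb1 kept the first rank, with 55.6% ± 0.331 in C2C12 Myod1-/- libraries and 64.8% ± 0.651 in C2C12 WT libraries. The second rank was held by Itgb3 in C2C12 Myod1-/- libraries (21.1% ± 0.275, against 2.82% ± 0.198 in C2C12 WT libraries). Itgb5 came next in C2C12 Myod1-/- libraries with 16.3% ± 0.224, and held the second rank in C2C12 WT libraries with 30.5% ± 0.635. Itgb2 made up 5.64% ± 0.246 in C2C12 Myod1-/- libraries and 0.671% ± 0.0401 in C2C12 WT libraries. By gene FPKM, the order of Itgb3 and Itgb5 was thus exchanged between the genotypes in every library. In transcript levels it was not. The only annotated Itgb3 transcript was at 38.5, 38.8 and 39.3 FPKM in C2C12 Myod1-/- libraries. The most abundant Itgb5 transcript was above it there, at 58.6, 64.0 and 61.9 FPKM, so the rank of Itgb3 is less certain.

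Lama5 made up 94.0% ± 0.0874 of the laminin alpha chain FPKM in C2C12 Myod1-/- libraries and 80.3% ± 0.240 in C2C12 WT libraries, although its own level fell. This rests on gene FPKM, of which the only annotated Lama5 transcript carried 6.86% to 11.6%. Where the rest of the signal lies was not tested, so the share and rank of Lama5 are less certain. Lama4 made up 4.95% ± 0.107 and Lama2 1.05% ± 0.0465 in C2C12 Myod1-/- libraries, against 10.6% ± 0.422 for Lama4 and 8.58% ± 0.571 for Lama2 in C2C12 WT libraries. Lamb1 made up 82.8% ± 0.327 of the beta chain FPKM in C2C12 Myod1-/- libraries and 51.8% ± 0.819 in C2C12 WT libraries, and Lamb2 made up 17.0% ± 0.400 in C2C12 Myod1-/- libraries and 46.9% ± 0.782 in C2C12 WT libraries. Lamc1 was nearly the only gamma chain in both genotypes, with 98.2% ± 0.109 in C2C12 Myod1-/- libraries and 98.6% ± 0.0520 in C2C12 WT libraries. The summed alpha chain FPKM of the laminins were 42.0 ± 2.61 in C2C12 Myod1-/- libraries and 71.8 ± 5.06 in C2C12 WT libraries, while the summed beta chain FPKM were 120 ± 2.59 in C2C12 Myod1-/- libraries and 109.6 ± 0.957 in C2C12 WT libraries.

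**Figure D3:**
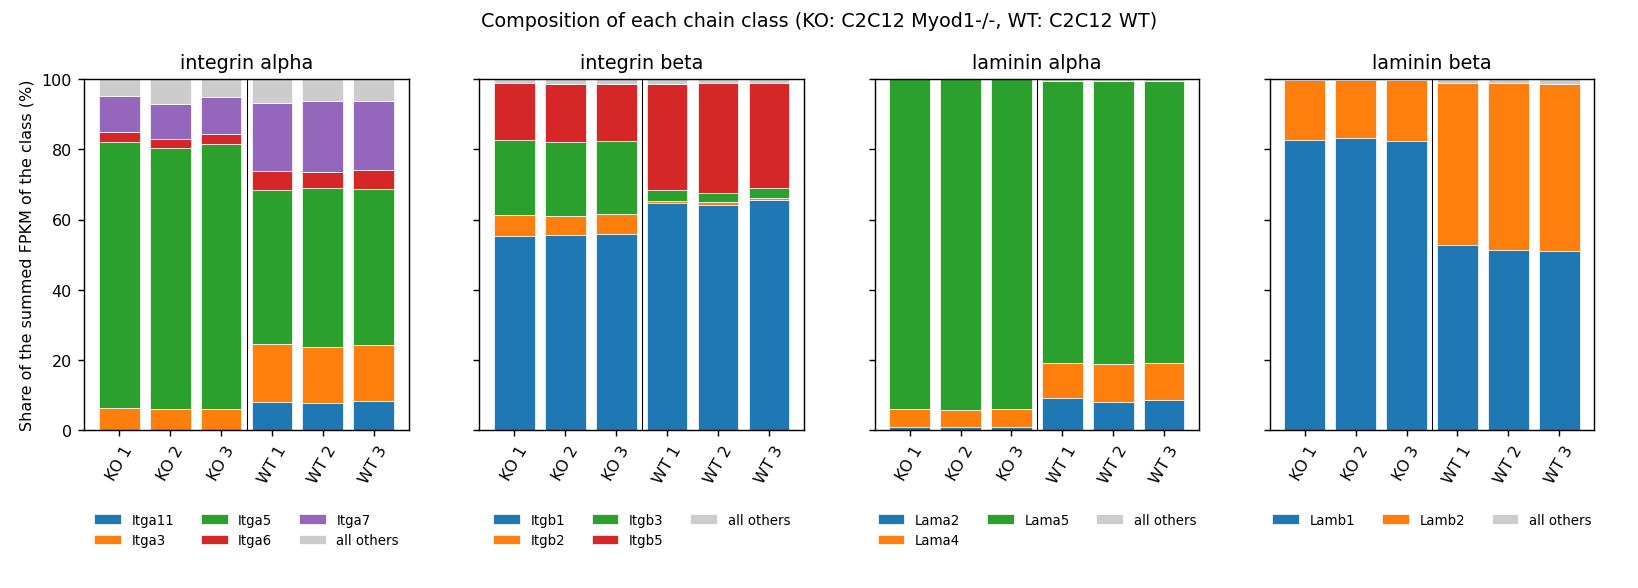
Share of each chain in the summed FPKM of its class, 1 bar for each library, with chains of at least 5% in either genotype in colour and all others in grey. Itga5, Itgb3, Lama5 and Lamb1 take larger shares in the 3 C2C12 Myod1-/- libraries (KO) than in the 3 C2C12 WT libraries (WT).

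Transcript levels separate the Itga7 and Itgb1 isoforms. Across the 41216 transcripts tested, 9.57% rose and 9.3% fell, with a median log2 fold change of 0.06. The test passed a smaller share of transcripts than of genes, so a transcript that did not pass cannot be taken as unchanged. The Itgb1 transcript with the extra 81-base tail exon (ENSMUST00000149116, an annotated fragment of 711 bases in 4 exons) was at 0.0993, 0.124 and 0.120 FPKM in C2C12 Myod1-/- libraries and 6.24, 8.13 and 8.21 FPKM in C2C12 WT libraries. It fell by 5.14 on the log2 scale (SE 0.203, adjusted p = 8.80e-05), while the Itgb1 gene as a whole fell by 0.15. The full-length transcript without that exon (ENSMUST00000090006) was at 157, 187 and 81.5 FPKM in C2C12 Myod1-/- libraries and 132, 213 and 228 FPKM in C2C12 WT libraries. Its libraries overlapped between the genotypes and it did not pass the test (-0.47 ± 0.378, adjusted p = 0.459). The fragment ENSMUST00000135281, annotated as a retained intron, was at 0.932, 0.272 and 2.34 FPKM in C2C12 Myod1-/- libraries and 0.592, 0.258 and 0.838 FPKM in C2C12 WT libraries (0.67 ± 0.786, adjusted p = 0.604).

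Within the summed FPKM of the 3 Itgb1 transcripts, the one with the extra exon made up 0.0907% ± 0.0454 (SD, n = 3) in C2C12 Myod1-/- libraries and 3.88% ± 0.548 in C2C12 WT libraries (exact permutation test, two-sided, p = 0.1, the smallest this design allows). Set against the level of the gene in the gene table, its FPKM was 0.0575% ± 0.00564 in C2C12 Myod1-/- libraries and 3.42% ± 0.559 in C2C12 WT libraries. The listed Itgb1 transcripts summed to only 41.9% of the gene's FPKM in C2C12 Myod1-/- replicate 3 and 61.7% in C2C12 WT replicate 1. The deposited table also holds 11474 transcripts assembled from the reads, which carry no gene name, and levels of ENSMUST00000090006 are therefore less certain than those of the gene.

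For Itga7, the transcript with the extra 113-base tail exon (ENSMUST00000219427, a fragment of 984 bases in 4 exons) fell most. It was at 0.129, 0.240 and 0.232 FPKM in C2C12 Myod1-/- libraries and 5.86, 5.63 and 4.35 FPKM in C2C12 WT libraries, a log2 fold change of -4.17 ± 0.254 (adjusted p = 0.000355). ENSMUST00000099112, with the 120-base exon, was at 1.98, 2.30 and 1.88 FPKM in C2C12 Myod1-/- libraries and 6.36, 6.79 and 6.58 FPKM in C2C12 WT libraries (-1.64 ± 0.140, adjusted p = 0.00113). The predominant transcript ENSMUST00000218290, with the 132-base exon, was at 28.7, 22.6 and 33.6 FPKM in C2C12 Myod1-/- libraries and 43.5, 57.7 and 54.7 FPKM in C2C12 WT libraries. It fell by 0.88 (SE 0.185, adjusted p = 0.0262), close to the change of the gene, and this call was lost when any one of 4 libraries was left out. The adjusted p was 0.0805 without C2C12 Myod1-/- replicate 1, 0.0574 without C2C12 Myod1-/- replicate 2, 0.0874 without C2C12 WT replicate 2 and 0.0907 without C2C12 WT replicate 3.

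The pair of Itga7 transcripts annotated as retained introns did not pass the test. ENSMUST00000218387 was at 2.56, 4.66 and 2.32 FPKM in C2C12 Myod1-/- libraries and 3.75, 2.03 and 3.47 FPKM in C2C12 WT libraries (adjusted p = 0.976). ENSMUST00000219897 was at 1.42, 1.12 and 1.35 FPKM in C2C12 Myod1-/- libraries and 1.87, 1.73 and 1.78 FPKM in C2C12 WT libraries (adjusted p = 0.149). Within the summed Itga7 transcripts, the 113-base exon form made up 0.578% ± 0.202 in C2C12 Myod1-/- libraries and 7.77% ± 1.71 in C2C12 WT libraries, and the 120-base exon form 5.97% ± 1.36 in C2C12 Myod1-/- libraries and 9.61% ± 0.658 in C2C12 WT libraries (exact permutation test, p = 0.1 for both). The 132-base exon form made up 80.3% ± 6.41 in C2C12 Myod1-/- libraries and 75.4% ± 3.91 in C2C12 WT libraries, and these overlapped (exact permutation test, p = 0.3). Set against the level of the gene the direction turned, with 105% ± 19.8 in C2C12 Myod1-/- libraries and 114% ± 17.0 in C2C12 WT libraries (exact permutation test, p = 0.6).

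**Figure D4:**
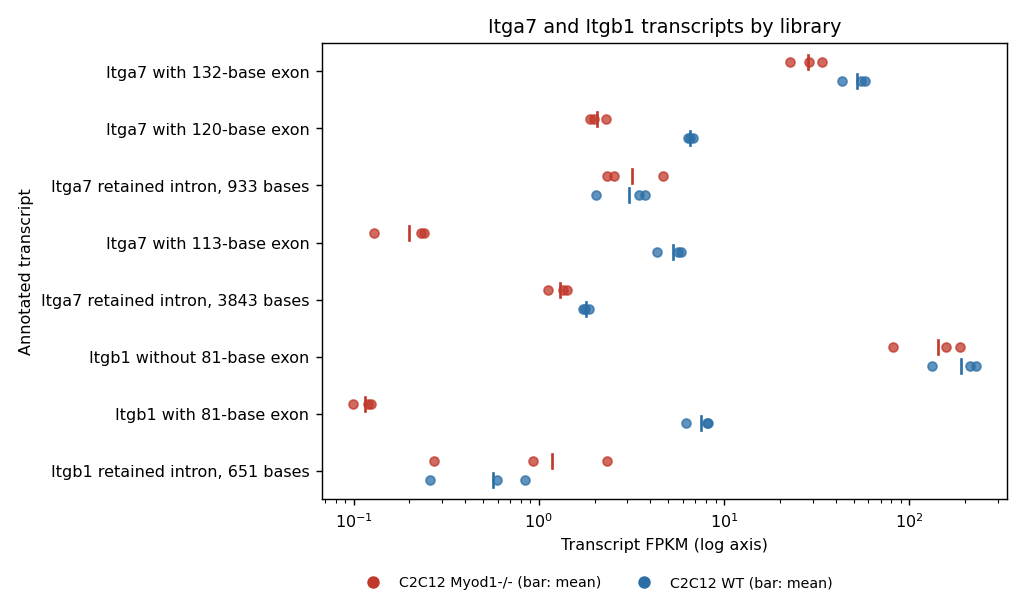
Transcript FPKM of Itga7 and Itgb1 by library, on a log axis, with a bar at the mean of each genotype. The forms with the 113-base and the 81-base tail exons are at or below 0.240 FPKM in all C2C12 Myod1-/- libraries and at or above 4.35 FPKM in all C2C12 WT libraries, while the genotypes lie closer together in the other forms.

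MYOD1 binds E-box sequences, and the windows from 250 bases before the start of each gene were searched for CAGCTG and CACCTG on both strands. RefSeq promoters (GRCm38.p6) were found for 23 of the 37 symbols. At least 1 of these motifs was in the window of 11 of the 23 (47.8%), and of 30.6% of all 27025 genes with a promoter in that table. Among matched members, 6 of 9 genes that fell and 0 of 3 that rose held one. The others that held one were Itgb8, which did not pass the test, and Itga1, Itga4, Itga9 and Itgb6, which were under the filter. With so few genes this is a description only, and a match says nothing about binding in these cells. The windows of Itga11, Itga3 and Itgb5, examples from an alpha chain near 0 in C2C12 Myod1-/- libraries and from abundant chains that fell, are printed on the strand of the gene with 1 motif in capitals. CAGGTG is CACCTG read on the other strand, and the Itgb5 window also holds CACCTG, left in lower case. They lie at chr9:62677717-62677756 (+ strand), chr11:95076887-95076926 (- strand) and chr16:33829526-33829565 (+ strand).
Itga11: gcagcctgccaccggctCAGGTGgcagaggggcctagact
Itga3: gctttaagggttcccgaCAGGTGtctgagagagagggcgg
Itgb5: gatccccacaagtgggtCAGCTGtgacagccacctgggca

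The proteins that work with integrins at the membrane and inside the cell changed in both directions. Of 42 such genes, 40 were tested, of which 10 rose (25.0%, where 27.9% of all genes tested rose) and 17 fell (42.5%, where 33.3% fell), with a median log2 fold change of -0.02. Itgb1bp2, which encodes melusin, a muscle protein that binds the beta1 tail, was at 0.199, 0.465 and 0.273 FPKM in C2C12 Myod1-/- libraries and 26.5, 27.9 and 28.4 FPKM in C2C12 WT libraries (-6.12 ± 0.225, adjusted p = 2.12e-06). Tln2, the talin enriched in striated muscle, was at 4.17, 3.80 and 4.25 FPKM in C2C12 Myod1-/- libraries and 12.1, 10.4 and 11.5 FPKM in C2C12 WT libraries (-1.45 ± 0.0808, adjusted p = 1.30e-05). Tln1, the common talin, was at 109.0, 109 and 114 FPKM in C2C12 Myod1-/- libraries and 106, 97.6 and 103 FPKM in C2C12 WT libraries, with no difference past the test (adjusted p = 0.0816). It is named as the counterpart of Tln2, chosen after its values were seen.

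Tns4, an adaptor on beta tails, was low in both genotypes and rose, with 1.34, 1.16 and 1.72 FPKM in C2C12 Myod1-/- libraries and 0.198, 0.148 and 0.0317 FPKM in C2C12 WT libraries (2.80 ± 0.345, adjusted p = 0.000543). Among the abundant partners, Bsg, a membrane glycoprotein that associates with integrins, was at 198, 187 and 189.9 FPKM in C2C12 Myod1-/- libraries and 479.5, 605 and 487 FPKM in C2C12 WT libraries (-1.44 ± 0.0940, adjusted p = 2.66e-05). Cd9, a tetraspanin, rose to 225, 222 and 219 FPKM in C2C12 Myod1-/- libraries, against 140.4, 146 and 145 FPKM in C2C12 WT libraries (0.63 ± 0.0352, adjusted p = 1.37e-05). Flna, which links beta tails to actin, was at 115, 117 and 115 FPKM in C2C12 Myod1-/- libraries and 171, 152 and 156 FPKM in C2C12 WT libraries (-0.46 ± 0.0521, adjusted p = 0.000360).

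Of 29 integrin ligands outside the laminins, 23 were tested, of which 7 rose (30.4%, near the 27.9% of all genes tested) and 14 fell (60.9%, against 33.3%), with a median log2 fold change of -0.67. Spp1, the RGD ligand osteopontin, was the most abundant, at 7055, 7569 and 7396 FPKM in C2C12 Myod1-/- libraries and 1051, 1152 and 1094 FPKM in C2C12 WT libraries (2.74 ± 0.0566, adjusted p = 2.13e-07). It moved in the same direction as Itgb3, whose receptor with Itgav binds it. Itgav itself did not pass the test, and Itgb5, another partner of Itgav, fell. Fn1, the ligand of the Itga5 receptor, was at 2082, 2133 and 2120.2 FPKM in C2C12 Myod1-/- libraries and 1999.8, 1619 and 1773 FPKM in C2C12 WT libraries. Its log2 fold change was 0.24 ± 0.0808 (adjusted p = 0.0408), and the call was lost without the filter on low values (0.132), without an intensity trend (0.0600), and when any of 5 libraries was left out (0.0698 to 0.111). These were all 3 C2C12 Myod1-/- replicates and C2C12 WT replicates 2 and 3. Vcam1, a ligand of the Itga4 receptors, was at 201, 208 and 202 FPKM in C2C12 Myod1-/- libraries and 29.5, 29.4 and 28.8 FPKM in C2C12 WT libraries (2.79 ± 0.0349, adjusted p = 4.13e-08).

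Col1a1 and Col3a1 encode fibrillar collagens. Col1a1 was at 90.6, 69.1 and 101 FPKM in C2C12 Myod1-/- libraries and 887, 1073 and 1065 FPKM in C2C12 WT libraries (-3.55 ± 0.151, adjusted p = 4.12e-06). Col3a1 was at 1099.9, 1103 and 1096 FPKM in C2C12 Myod1-/- libraries and 1503, 1511 and 1457 FPKM in C2C12 WT libraries (-0.44 ± 0.0392, adjusted p = 0.000118), but under quantile normalization its difference was 0.11, with the opposite sign (adjusted p = 0.0815). Npnt, nephronectin, the ligand of the Itga8 receptor, was at 0.0455, 0.0891 and 0.0172 FPKM in C2C12 Myod1-/- libraries and 16.4, 20.5 and 14.6 FPKM in C2C12 WT libraries (-6.86 ± 0.214, adjusted p = 1.09e-06).

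Of 35 basement membrane and laminin receptor genes, 29 were tested, of which 10 rose (34.5%, against 27.9% of all genes tested) and 17 fell (58.6%, against 33.3%), with a median log2 fold change of -0.47. Those that rose included Agrn (agrin, which binds laminin and dystroglycan), at 98.3, 97.7 and 100.01 FPKM in C2C12 Myod1-/- libraries and 25.6, 22.2 and 23.1 FPKM in C2C12 WT libraries (2.06 ± 0.0595, adjusted p = 7.91e-07). The basement membrane collagen genes Col18a1 (1.29 ± 0.0443, adjusted p = 1.67e-06), Col4a1 (1.07 ± 0.0388, adjusted p = 2.02e-06) and Col4a2 (0.85 ± 0.0450, adjusted p = 1.05e-05) also rose, and these 4 were chosen after their values were seen. Nid2, a nidogen that ties laminin to collagen IV, was at 48.1, 47.8 and 52.0 FPKM in C2C12 Myod1-/- libraries and 415, 438 and 425 FPKM in C2C12 WT libraries (-3.11 ± 0.0477, adjusted p = 7.10e-08). Bcam, a receptor for Lama5 laminins, was at 0.272, 0.201 and 0.225 FPKM in C2C12 Myod1-/- libraries and 11.7, 14.4 and 13.1 FPKM in C2C12 WT libraries (-5.31 ± 0.126, adjusted p = 3.40e-07). Both thus fell with the laminin alpha chains.

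Sgca, a muscle sarcoglycan of the dystroglycan complex that binds Lama2 laminins, was near 0 in C2C12 Myod1-/- libraries. It was at 0.387, 0.396 and 0.332 FPKM in C2C12 Myod1-/- libraries and 13.3, 14.1 and 12.9 FPKM in C2C12 WT libraries (-4.85 ± 0.0914, adjusted p = 1.51e-07). Among the most abundant of the list, Sparc, a collagen-binding matrix protein, was at 499, 519.6 and 481 FPKM in C2C12 Myod1-/- libraries and 1657, 1789 and 1709 FPKM in C2C12 WT libraries (-1.78 ± 0.0506, adjusted p = 7.33e-07). Rpsa, a ribosomal protein also described as a laminin receptor, was at 299.9, 309 and 299.5 FPKM in C2C12 Myod1-/- libraries and 442, 491 and 445 FPKM in C2C12 WT libraries (-0.60 ± 0.0525, adjusted p = 0.000106).

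**Figure D5:**
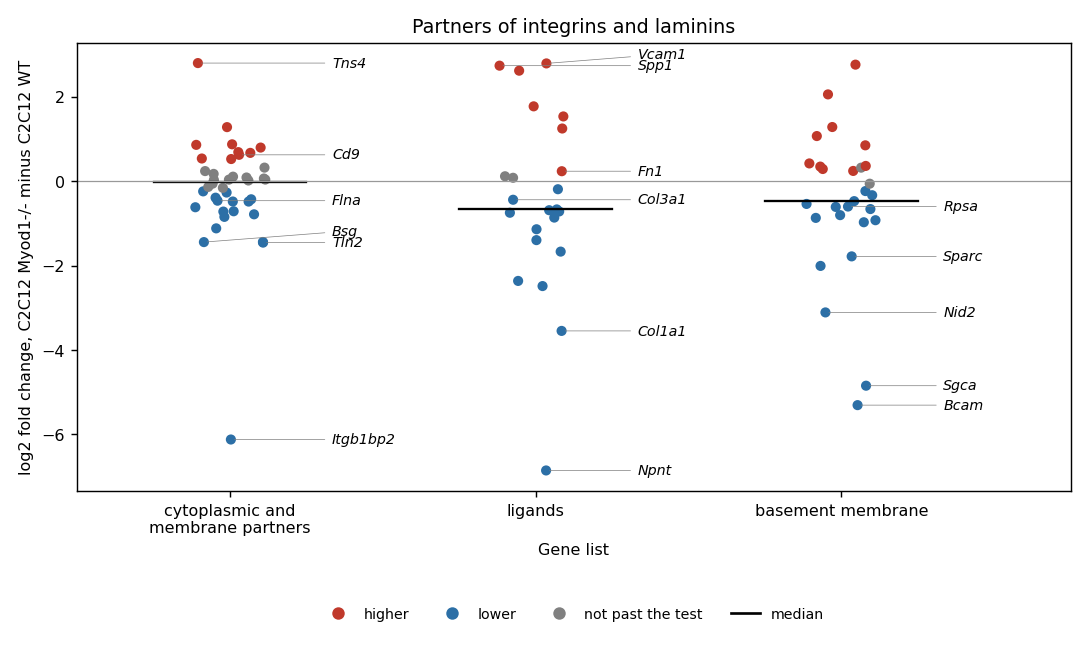
Log2 fold change, C2C12 Myod1-/- minus C2C12 WT, of tested genes in the 3 partner lists, coloured by the outcome of the test at an adjusted p of 0.05, with a line at the median of each list. The named genes run between Tns4 at 2.80, Vcam1 at 2.79 and Spp1 at 2.74, and Npnt at -6.86, and each list has genes on both sides of 0.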

How the data were processed

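RNA-seq of 3 C2C12 Myod1-/- and 3 C2C12 WT samples was analysed. According to the study's methods and the labels, rRNA was removed and NEBNext Ultra libraries were sequenced. The tools named are bcl2fastq, fastp, FastQC, HISAT2 and TopHat, with the build GRCm38. Versions and strand setting are not given in the sources used here. The authors deposited FPKM from StringTie for genes and transcripts. The files hold no counts, so count models were not used. Columns carry short codes. They were assigned to samples by matching 3192 of 3192 genes, within a relative tolerance of 0.001, to values the study prints under genotype headings, and columns of the transcript table by the same names.

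Features with a mean of at least 0.5 FPKM were fitted with limma 3.58.1 (R 4.3.3) on log2(FPKM + 0.1), by genotype, with an intensity trend, and tested on simulated data. This pseudocount understates changes of low genes. A feature rose or fell where its adjusted p was under 0.05. Shares were tested with scipy 1.17.1. Values in every library are given for members with at least 5 FPKM in either genotype or an absolute log2 change of at least 1, and for others that complete a class or were chosen after their values were seen. From each partner list the 3 highest and 3 most changed genes that passed are named. Some genes that these rules name are counted but not reported here. The members and lists were chosen with earlier results of these data known. Other pseudocounts, filters and scalings, a fit without trend, a replicate block and leaving out each library were tried.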

Additional observations from a re-analysis of the deposited data

How the results depend on the processing

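Of the 19 genes that passed the test, 17 kept their direction and their call under each alternative in which they were fitted. Lamb3, at a mean of 0.857 FPKM, was not fitted under the filter of at least 1 FPKM. Itgb1 and Itga2b, whose values stand above, kept their direction but not their call. Of the 3 that did not pass, Itgb8 passed under quantile normalization (0.33, adjusted p = 0.0472), Itga10 changed sign under 4 alternatives (quantile normalization 0.15, TPM 0.01, without C2C12 Myod1-/- replicate 1 0.03, without C2C12 WT replicate 1 0.10) and Itgav under 1 (-0.07 without C2C12 Myod1-/- replicate 2). The counts of genes that rose and fell became 4 and 6 under the study's rule, which asks for a log2 fold change of at least 1, and were 7 to 7 and 10 to 11 with 1 library left out. Of all 14045 genes tested, 3451 to 3861 rose and 4173 to 4700 fell with 1 library left out. Without the filter on low values 8 members rose and 18 fell, where 4283 of all 28892 genes rose and 5322 fell. Under quantile normalization 8 members rose and 10 fell, where 4441 of all 14045 genes rose and 4188 fell. The log2 fold change of Itga7 ENSMUST00000218290 lost its call without an intensity trend (-0.88, adjusted p = 0.0539) and ranged from -1.02 to -0.73 with 1 library left out. With only chains of at least 0.5 FPKM in the sum, the difference in share, C2C12 Myod1-/- minus C2C12 WT, was 13.3 percentage points for Lama5 (13.6 with all chains) and -0.69 for Lamc1 (-0.42 with all chains). Set against the gene's FPKM, an alternative chosen after seeing the data, the differences were -8.35 points for Itga7 ENSMUST00000218290, -6.73 for ENSMUST00000099112, -10.8 for ENSMUST00000219427 and -15.3 for Itgb1 ENSMUST00000090006. The difference of the main Itga7 and Itgb1 transcripts thereby changed sign, so their shares are not settled. Col3a1 had the opposite sign under quantile normalization (0.11).

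Samples with the same replicate number did not deviate together (r = -0.10, -0.14 and -0.03 across genes), so no pairing by number was seen. Deviations from the mean of only 3 libraries are tied to each other, so these correlations cannot settle whether equal numbers shared handling. With a replicate block, the calls of Itgb1 (-0.15, adjusted p = 0.0637), Itga2b (-0.46, 0.0647), Fn1 (0.24, 0.0722) and Itga7 ENSMUST00000218290 (-0.88, 0.0860) were lost, and 3559 genes in all rose and 4280 fell. The deposited values are FPKM with no read numbers, so no counting error can be given for low genes.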

Other observations

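Transcripts of other members were looked at after their values were seen, and are given as values. Of the Itga3 transcripts, ENSMUST00000001548 was at 14.8, 7.23 and 11.1 FPKM in C2C12 Myod1-/- libraries and 38.3, 33.5 and 35.8 FPKM in C2C12 WT libraries, and fell by 1.75 on the log2 scale (adjusted p = 0.00889). ENSMUST00000107739 of the same gene was at 3.82, 11.4 and 6.77 FPKM in C2C12 Myod1-/- libraries and 7.89, 9.30 and 6.93 FPKM in C2C12 WT libraries, and did not pass the test (adjusted p = 0.707). Whether this pair differs in its change was not tested. Of the Itga6 transcripts, ENSMUST00000028522 was at 11.0, 9.48 and 11.6 FPKM in C2C12 Myod1-/- libraries and 22.4, 17.6 and 20.8 FPKM in C2C12 WT libraries, and fell by 0.91 (adjusted p = 0.00834). ENSMUST00000112101 was at 2.66, 3.37 and 2.91 FPKM in C2C12 Myod1-/- libraries and 0.234, 0.125 and 3.72 FPKM in C2C12 WT libraries, where C2C12 WT replicate 3 stood apart (adjusted p = 0.238).

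The only annotated Lama5 transcript carried 6.86% to 9.51% of the gene's FPKM in C2C12 Myod1-/- libraries and 7.45% to 11.6% in C2C12 WT libraries. The only annotated Itgb3 transcript carried 50.7% to 52.7% in C2C12 Myod1-/- libraries and 47.5% to 66.8% in C2C12 WT libraries, and it rose with its gene (2.87, adjusted p = 0.000158).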
